A study of Mus musculus with 24 samples.

Results

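A set of 10 receptor genes, through which the brain reads hormones and peptides of energy balance, was followed in the ventromedial hypothalamus (VMH): Lepr, Glp1r, Ghsr, Mc3r, Mc4r, Npy1r, Cnr1, Gpr83, Avpr1a and Esr1. They were chosen by name, with earlier results of these data known, as the array rows annotated with exactly 1 of these 10 symbols. Each gene had 1 such row, so no choice between rows was needed. They are 10 of 30142 genes with a single symbol in the series and 10 of the 16738 genes tested in VMH. All 10 passed the filter on dim rows, a mean of at least 5.39 log2 units over the VMH arrays.

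Total RNA of VMH, cut out of frozen brain sections of 100 µm, and of brown adipose tissue (BAT) was hybridised to 24 Affymetrix arrays. The 12 VMH arrays fell into 4 groups of 3. These were mice labelled Gfap-Bmal1 cKO on high fat diet (HFD), control mice on HFD, cKO mice on standard diet and control mice on standard diet, each after 16 weeks of feeding. The label cKO names a conditional loss of Bmal1 (gene symbol Arntl), a transcription factor at the core of the circadian clock, directed by Gfap, an intermediate filament gene of astrocytes. The labels do not give the Cre line, the time of deletion, the genotype of the controls beyond that word and WT in their titles, or the age and sex of the mice. Nor do they say whether the 3 arrays of a group read separate animals. The p-values therefore rest on array-to-array spread, and this may be technical.

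The VMH holds glutamatergic neurons that act on energy expenditure, glucose balance and social behaviour, and it lies next to the arcuate nucleus, where other neurons sense circulating hormones. Leptin from fat and ghrelin from the stomach carry opposite messages on energy stores, and melanocortin peptides made from Pomc lower food intake through Mc3r and Mc4r. GLP-1, neuropeptide Y, endocannabinoids, vasopressin and oestrogen act on overlapping hypothalamic circuits. Most of these receptors belong to neurons, while the deletion studied was directed to astrocytes.

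The dissected tissue carried markers of VMH, but not of VMH alone. Fezf1, a transcription factor of VMH neurons, averaged 15.1 log2 units, Slc17a6, the vesicular glutamate transporter of these neurons, 15.6, and Nr5a1 (SF-1), their defining transcription factor, 8.04 with a range of 7.53 to 8.47. Sox14, another VMH marker, averaged 6.78. Markers of other hypothalamic neurons, given further on, had means of 10.58 to 11.47 on HFD arrays and 10.79 to 11.8 on standard-diet arrays. Array medians lay between 5.48 and 5.57. Arntl was not lower on arrays labelled cKO: it was 0.55 log2 units higher than in controls on standard diet and 0.24 higher on HFD (adjusted p = 0.547 and 0.62, limma). Which part of the gene its probes read was not checked here. Gfap was 1.53 higher in cKO mice on standard diet and 1.09 higher on HFD (adjusted p = 0.491 and 0.402). One library stood apart. On cKO HFD array 2 the pituitary hormone genes Prl and Gh reached 17.4 and 13.7 log2 units, against 4.11 to 4.58 and 4.80 to 5.47 on the other 11 arrays. The receptor differences were therefore also fitted without that array; correlations and marker scores include it.

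At the level of single arrays, 3 receptors gave bright signals, 3 intermediate ones and 4 signals closer to the middle of the table. An array signal depends on the probes of its row, so the place of a row among all rows of the table (its percentile) describes signal and not transcript abundance. Glp1r (row TC1700000523.mm.1, chromosome 17), the receptor of the gut and brainstem peptide GLP-1, averaged 10.3 log2 units over the 12 VMH arrays, brighter than 90.9% of rows. Npy1r (row TC0800000690.mm.1, chromosome 8), a receptor of neuropeptide Y, averaged 10.2 and stood above 90.7% of rows. Cnr1 (row TC0400000294.mm.1, chromosome 4), the cannabinoid receptor of nerve terminals, averaged 9.76, above 89.1%. These 3 rows had the strongest signal of the set on average.

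Gpr83 (row TC0900000113.mm.1, chromosome 9), a G protein-coupled receptor bound by the peptide PEN, averaged 8.41 log2 units at percentile 81.8. Mc3r (row TC0200002663.mm.1, chromosome 2), the melanocortin receptor of the arcuate nucleus and VMH, averaged 7.90 at percentile 78.0, and Lepr (row TC0400001039.mm.1, chromosome 4), the leptin receptor, 7.73 at percentile 76.6. Avpr1a (row TC1000001506.mm.1, chromosome 10), a vasopressin receptor, averaged 6.73 at percentile 67.1. Mc4r (row TC1800001485.mm.1, chromosome 18), whose loss causes obesity, averaged 6.48 at percentile 64.4. Ghsr (row TC0300000162.mm.1, chromosome 3), the ghrelin receptor, averaged 6.32 at percentile 62.5. Esr1 (row TC1000000030.mm.1, chromosome 10), oestrogen receptor alpha and the only nuclear receptor of the set, averaged 5.96 at percentile 58.2, the dimmest of the 10.

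**Figure D1:**
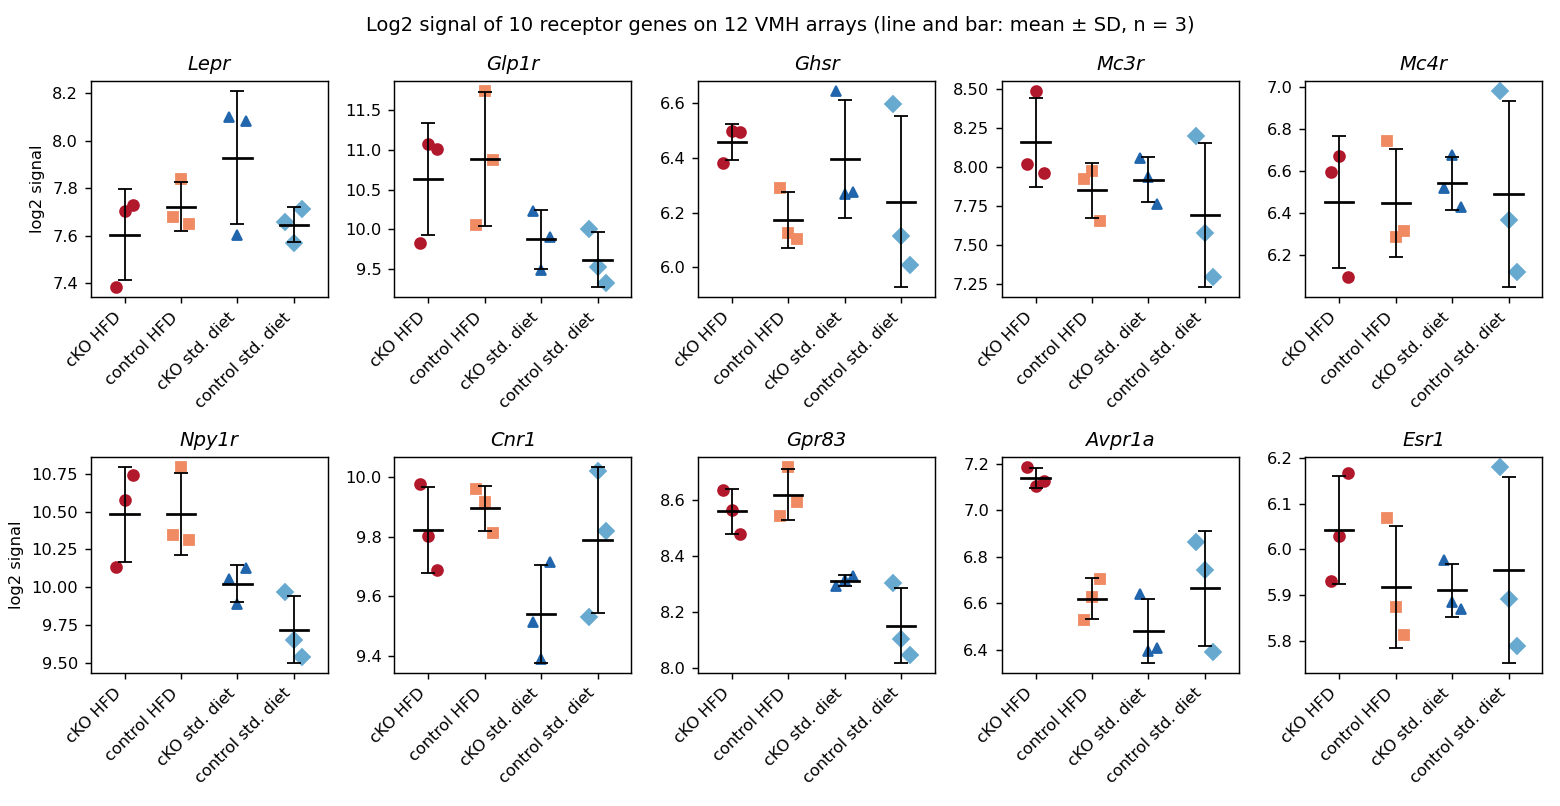
Log2 signal of the 10 receptor genes on each of the 12 VMH arrays, with 1 panel per gene and its own vertical axis. Points are arrays, and the line and bar give the mean and standard deviation of each group of 3; std. diet is the standard diet. For Gpr83 and Npy1r all HFD arrays lie above all standard-diet arrays, and for Avpr1a the 3 cKO HFD arrays, at 7.10 to 7.19, lie above the other 9.

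The spread between arrays of a group differed widely among the receptors. The pooled standard deviation was 0.61 log2 units for Glp1r, and 99.6% of tested genes had a smaller one. It was 0.31 for Mc4r and 0.30 for Mc3r, above those of 95.8% and 95.1% of genes. It was 0.09 for Gpr83, smaller than the median of 0.12 over all tested genes, with 30.1% of genes below it. A difference of a given size was therefore measured far more sharply for Gpr83 than for Glp1r.

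Windows of 300 bases around the transcription start (250 before it and 50 after) were read for these genes from RefSeq promoters of assembly GRCm38.p6. The table held 13 windows for 9 of the 10 genes. They were searched on both strands for CACGTG (the E-box that the CLOCK and BMAL1 pair binds), TGACG (the core of a cAMP response element), TTCNNNGAA (the STAT site) and the full oestrogen response element (GGTCA and its reverse complement, 3 bases apart); none of these motifs contains another. The E-box stood in 1 window, that of Cnr1, against 7.15% of all 32851 windows of this length. TGACG stood in 3 windows, of Mc3r, Gpr83 and Avpr1a, against 20.8% of all windows, the STAT site in 1, of Esr1, against 8.3%, and the full oestrogen element in none, against 0.07%. The windows of Gpr83 and Avpr1a, the receptors with the smallest p-values below, and of Cnr1, which holds the E-box, are printed 5′ to 3′ with the motif in capitals; all 3 genes lie on the plus strand. The Gpr83 window (chr9:14859960-14860259) has TGACG as its reverse complement, from position -71. The Avpr1a window (chr10:122448249-122448548) has TGACG on the printed strand, from -165. The Cnr1 window (chr4:33924394-33924693) has its E-box from -49. Positions are counted from the annotated start. A match describes letters and was not tested as a site.
Gpr83: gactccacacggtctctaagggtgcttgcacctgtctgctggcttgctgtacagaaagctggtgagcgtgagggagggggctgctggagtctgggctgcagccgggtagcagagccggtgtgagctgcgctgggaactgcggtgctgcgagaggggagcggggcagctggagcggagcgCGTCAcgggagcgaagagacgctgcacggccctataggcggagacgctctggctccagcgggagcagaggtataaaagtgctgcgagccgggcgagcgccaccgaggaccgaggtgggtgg
Avpr1a: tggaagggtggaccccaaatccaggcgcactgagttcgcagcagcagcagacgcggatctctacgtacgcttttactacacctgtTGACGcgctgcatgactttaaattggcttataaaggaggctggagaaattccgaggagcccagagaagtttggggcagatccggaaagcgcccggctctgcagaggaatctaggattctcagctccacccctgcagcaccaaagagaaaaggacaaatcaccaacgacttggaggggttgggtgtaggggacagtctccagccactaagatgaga
Cnr1: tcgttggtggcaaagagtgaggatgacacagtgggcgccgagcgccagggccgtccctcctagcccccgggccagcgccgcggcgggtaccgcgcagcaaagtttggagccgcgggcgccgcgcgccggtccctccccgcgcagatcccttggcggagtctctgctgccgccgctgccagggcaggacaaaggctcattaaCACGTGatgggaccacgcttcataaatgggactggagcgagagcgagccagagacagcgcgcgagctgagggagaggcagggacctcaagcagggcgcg

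The Cnr1 and Gpr83 windows had a GC content of 69% and 67% with 33 and 24 CpG pairs. The Avpr1a window had 54.0% and 13 pairs, and the median over all windows was 52.7% and 7 pairs.

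The comparison of diets asked how receptor signals on HFD stood against those on standard diet. None of the 10 receptors passed the threshold, an adjusted p of 0.05 over all 16738 genes, in either genotype or averaged over both. Over all genes, 0.0119% passed in the averaged comparison (2 genes), 0.00597% in cKO mice (1 gene) and 0.0% in controls, where 1403 genes had an unadjusted p under 0.05. Short of that threshold, 4 receptors had an unadjusted p under 0.05 in the averaged comparison, Gpr83, Npy1r, Glp1r and Avpr1a, all higher on HFD; the share over all genes was 12.6%, and 9.83% for higher signals. Gpr83 and Npy1r, 2 of the 10, had 6 HFD arrays that all lay above the 6 standard-diet arrays. Arrays did not overlap between diets in 0.807% of all genes, and 0.705% were higher on HFD without overlap. The median difference of the 10 receptors was 0.20 log2 units, against 0.02 over all genes. A list of 30 other tested receptors for energy-balance signals, given further on, had a median of -0.03. The 10 were chosen with earlier results of these data known, so these counts and medians are not an independent test.

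Gpr83 had the smallest p-value of the set. Its signals were 8.64, 8.57 and 8.48 log2 units in cKO HFD mice and 8.54, 8.72 and 8.59 in control HFD mice, against 8.29, 8.31 and 8.33 in cKO mice and 8.30, 8.10 and 8.05 in controls on standard diet. Both HFD groups lay above both standard-diet groups with no overlap. The averaged difference was 0.36 ± 0.06 (SE; 95% interval 0.24 to 0.48; 1.28-fold; 6 arrays a diet), which ranked 9 by p among all genes and had an adjusted p of 0.0879 (limma). Within genotypes it was 0.25 in cKO mice (95% interval 0.08 to 0.42, adjusted p = 0.35) and 0.47 in controls (0.30 to 0.64, adjusted p = 0.343), where it ranked 2. The averaged difference passed with array weights (0.37, adjusted p = 0.0244) and without control standard-diet array 1 (0.40, adjusted p = 0.0415). It was 0.36 without cKO HFD array 2 (adjusted p = 0.213).

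Npy1r showed the same order of diets with a larger difference and a larger spread. Its signals were 10.13, 10.58 and 10.74 log2 units in cKO HFD mice and 10.35, 10.79 and 10.31 in control HFD mice, against 10.05, 9.89 and 10.13 in cKO mice and 9.96, 9.65 and 9.54 in controls on standard diet. The 6 HFD arrays ran from 10.132 to 10.8 and the 6 standard-diet arrays from 9.54 to 10.127, so the gap between the diets was narrow at its edge. The averaged difference was 0.61 ± 0.12 (SE; 95% interval 0.34 to 0.89; 1.53-fold; adjusted p = 0.171, limma). It was 0.46 in cKO mice (adjusted p = 0.449) and 0.77 in controls (0.38 to 1.16, adjusted p = 0.343), with no overlap of arrays in either. The cKO value ran from 0.33 to 0.64 when 1 array at a time was left out, with an unadjusted p of 0.105 without cKO HFD array 3. Without cKO HFD array 2 the averaged difference was 0.59.

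Glp1r had the largest difference between diets of the 10 and the widest interval. Its signals were 9.82, 11.07 and 11.02 log2 units in cKO HFD mice and 10.05, 11.75 and 10.87 in control HFD mice, against 10.23, 9.49 and 9.90 in cKO mice and 10.01, 9.53 and 9.32 in controls on standard diet. The lowest array of each HFD group, 9.82 and 10.05, lay below the highest standard-diet array, 10.23. The averaged difference was 1.02 ± 0.30 (SE; 95% interval 0.35 to 1.68; 2.02-fold; adjusted p = 0.245, limma). It was 1.27 in controls, where the arrays did not overlap (adjusted p = 0.494; 0.84 and an unadjusted p of 0.0623 without control HFD array 2), and 0.76 in cKO mice, with an interval of -0.18 to 1.71 (adjusted p = 0.621). In cKO mice it was 1.17 without cKO HFD array 1, and 0.55 without cKO HFD array 2.

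Avpr1a had a diet difference of its own form, large in cKO mice and near 0 in controls by value; the interaction, given further on, tests this. On HFD the cKO arrays stood at 7.19, 7.10 and 7.13 log2 units, against 6.64, 6.40 and 6.41 on standard diet. The 2 groups did not overlap, and the difference was 0.66 ± 0.11 (SE; 95% interval 0.41 to 0.91; 1.58-fold; rank 17 by p; adjusted p = 0.133, limma). In controls it was -0.05 (-0.30 to 0.21, adjusted p = 0.945). In cKO mice 3 of the 10 receptors had arrays that did not overlap between diets (Avpr1a, Gpr83 and Npy1r; 17.5% of all genes did), and 5 had an unadjusted p under 0.05 (9.51% of all genes). In controls both counts were 3, Glp1r, Gpr83 and Npy1r, against 12.4% and 8.38% of all genes.

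The leptin receptor was the one receptor with a lower signal on HFD at an unadjusted p under 0.05. In cKO mice Lepr had 7.38, 7.70 and 7.73 log2 units on HFD, against 8.10, 7.61 and 8.08 on standard diet. The difference was -0.32 (95% interval -0.62 to -0.03, adjusted p = 0.491, limma), and cKO standard-diet array 2 lay below 2 HFD arrays. It was -0.21 without cKO HFD array 1, with an unadjusted p of 0.153, and -0.49 without cKO standard-diet array 2; the unadjusted p was also above 0.05 without cKO standard-diet array 1 or 3. In controls it was 0.08 (-0.22 to 0.37). Cnr1 was 0.28 higher on HFD in cKO mice (0.004 to 0.56, adjusted p = 0.521) and 0.11 higher in controls (-0.17 to 0.39); the arrays overlapped in both. The cKO value was 0.21 without cKO HFD array 1 (unadjusted p = 0.167).

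The melanocortin, ghrelin and oestrogen receptors gave intervals that held 0 for both genotypes. Averaged over genotypes, the difference between diets was 0.20 for Mc3r (95% interval -0.13 to 0.53), -0.07 for Mc4r (-0.41 to 0.28), -0.002 for Ghsr (-0.23 to 0.23) and 0.05 for Esr1 (-0.12 to 0.21). For Esr1 the interval leaves room for a rise of at most 1.16-fold and for Mc3r of at most 1.44-fold. Of these receptors, Mc3r moved most when cKO HFD array 2 was left out. It had its highest signal on that array, 8.49, and its averaged difference without it was 0.12. Leaving out 1 array at a time gave 0.10 to 0.33 for Mc3r, so other arrays moved it further.

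**Figure D2:**
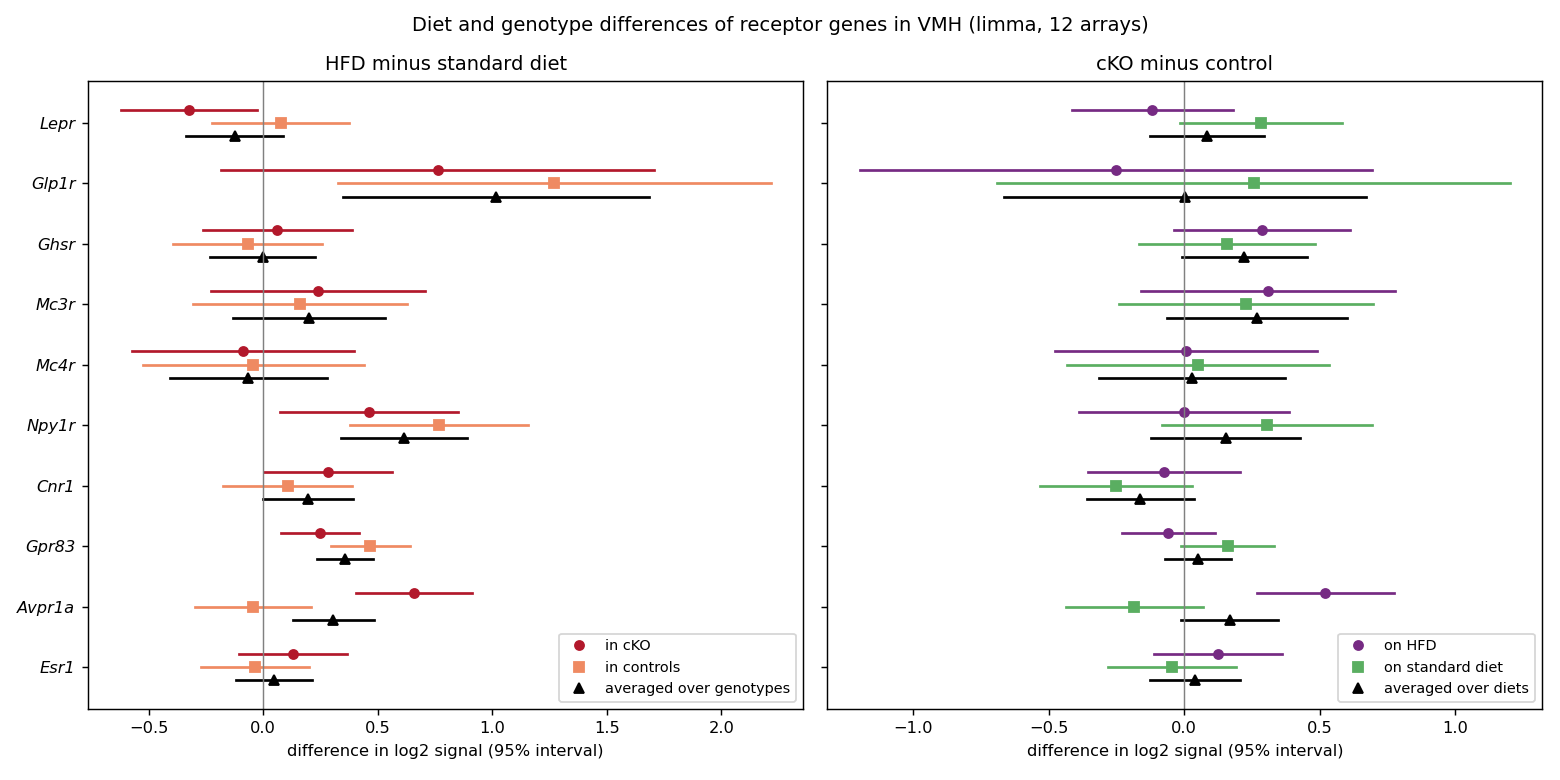
Differences in log2 signal of the 10 receptor genes between diets (left, HFD minus standard diet) and genotypes (right, cKO minus control), with 95% intervals from limma over 12 VMH arrays. Red, orange and black mark the diet difference in cKO mice, in controls and averaged; purple, green and black mark the genotype difference on HFD, on standard diet and averaged. The averaged diet intervals of Gpr83, Npy1r, Glp1r and Avpr1a lie above 0, and among genotype intervals only that of Avpr1a on HFD, at 0.27 to 0.77, does so.

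The signal of VMH neuron markers moved with diet as well. The mean over the 18 tested of 20 VMH neuron markers ran from 9.23 to 9.50 log2 units on the 6 HFD arrays, against 9.10 to 9.26 on the 6 standard-diet arrays. None of the 18 passed the threshold, 15 were higher on HFD in the averaged comparison, and their median difference was 0.24. The filter on dim rows keeps only genes with means at or above that of the median row. In bulk tissue, fewer cells of a type and less RNA per cell cannot be told apart. Across the 12 arrays, which share diet groups and dissections, the correlation with this score was 0.82 for Npy1r, 0.79 for Gpr83, 0.73 for Glp1r and 0.53 for Avpr1a.

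Most markers of oligodendrocytes and of other hypothalamic neurons were lower on HFD by value, which did not hold for every cell type. In the averaged comparison 7 of 9 arcuate markers were higher (median difference 0.08). So were 5 of 9 endothelial and mural markers (0.04) and 4 of 7 of tanycytes and ependyma (0.03). For pituitary and choroid plexus it was 4 of 6 (0.71), with cKO HFD array 2 included. On that array Prl, Gh and Pomc stood at 17.4, 13.7 and 10.4 log2 units. The other cKO HFD arrays had 4.45 and 4.44 for Prl, 4.82 and 5.01 for Gh, and 7.32 and 8.69 for Pomc. The median without that array was not computed. Astrocyte and microglia markers had medians of -0.03 and -0.02, with 4 of 12 and 3 of 9 higher. Of 15 oligodendrocyte markers, 2 were higher on HFD in the averaged comparison and none passed; their median difference was -0.27, and their mean ran from 9.41 to 10.03 on HFD arrays against 9.17 to 10.95 on standard-diet arrays. Of 8 markers of other hypothalamic neurons, 3 were higher and none passed; their median difference was -0.18, and their mean ran from 10.58 to 11.47 on HFD arrays against 10.79 to 11.8 on standard-diet arrays. The correlation with the oligodendrocyte score was -0.51 for Gpr83, -0.57 for Npy1r and -0.47 for Glp1r, and with the score of other hypothalamic neurons -0.57, -0.42 and -0.56 in the same order. The part of these scores in the diet differences was not tested.

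With the VMH marker score as a covariate, the averaged difference between diets was 0.26 for Gpr83 (95% interval 0.04 to 0.48, adjusted p = 0.916), 0.29 for Npy1r (-0.16 to 0.74), 0.26 for Glp1r (-0.84 to 1.36) and 0.41 for Avpr1a (0.08 to 0.74). The score itself differed by diet, at 9.23 to 9.50 on HFD arrays against 9.10 to 9.26 on standard-diet arrays. This fit therefore cannot tell a part of the score from a part of diet. For Npy1r and Glp1r the covariate moved the averaged value by over 1.5 times. In cKO mice the differences were then 0.14 for Gpr83 (-0.13 to 0.40), 0.10 for Npy1r and -0.10 for Glp1r, each moved by over 1.5 times. The 9 tested arcuate markers gave a score of 7.34 to 8.47 on HFD arrays, against 7.45 to 7.93 on standard-diet arrays. With that score as the covariate the differences were 0.36 for Gpr83, 0.54 for Npy1r, 0.87 for Glp1r and 0.29 for Avpr1a.

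**Figure D3:**
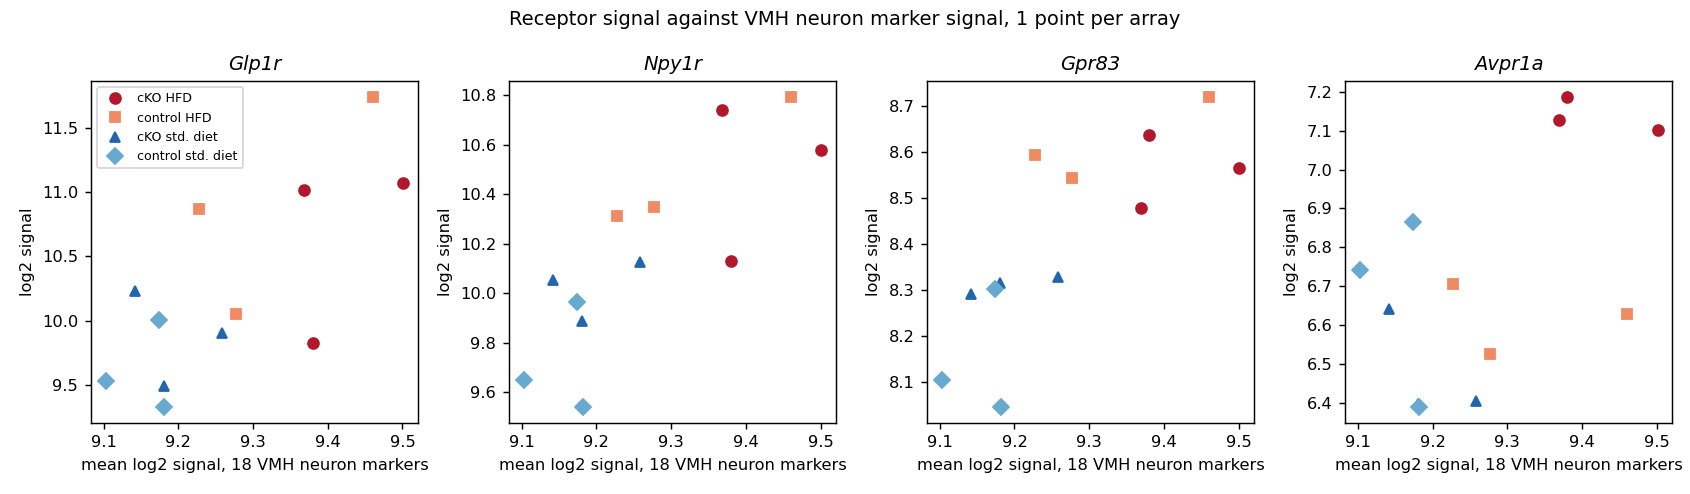
Log2 signal of Glp1r, Npy1r, Gpr83 and Avpr1a (vertical axes) against the mean log2 signal of 18 VMH neuron markers (horizontal axes), 1 point per VMH array, coloured by group; std. diet is the standard diet. The HFD arrays lie at 9.23 to 9.50 on the horizontal axis and most standard-diet arrays to their left; Npy1r and Gpr83 follow the score with r of 0.82 and 0.79, while for Avpr1a the 3 cKO HFD arrays stand above the other 9.

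The comparison of genotypes asked how receptor signals in mice labelled cKO stood against controls on the same diet. No receptor passed the threshold on HFD, where 0.287% of all genes did (48 genes), on standard diet, where 0.263% did (44 genes), or averaged over diets, where 0.615% did (103 genes). On HFD, 1 receptor, Avpr1a, had an unadjusted p under 0.05 (11.1% of all genes), and arrays of 2, Avpr1a and Ghsr, did not overlap between genotypes (19.9% of all genes). On standard diet neither count held any receptor, against 6.67% and 9.94% of all genes. Averaged over diets neither held any, against 11.2% and 1.09% of all genes. The median difference of the 10 receptors was 0.003 log2 units on HFD and 0.16 on standard diet, against 0.03 and 0.02 over all genes.

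Avpr1a was the receptor with the largest difference between genotypes on HFD. Its signals were 7.19, 7.10 and 7.13 log2 units in cKO HFD mice, against 6.53, 6.63 and 6.70 in control HFD mice. Every cKO array lay above every control array. The difference was 0.52 ± 0.11 (SE; 95% interval 0.27 to 0.77; 1.43-fold; adjusted p = 0.132, limma), and rank 111 by p among all genes. On standard diet it was -0.18 (-0.44 to 0.07, adjusted p = 0.845), with 6.64, 6.40 and 6.41 in cKO mice against 6.86, 6.74 and 6.39 in controls. The HFD difference passed with array weights (0.50, adjusted p = 0.0383) and without control standard-diet array 3, a library outside the contrast that enters the estimate of spread (0.52, adjusted p = 0.036). Without cKO HFD array 2 it was 0.54 (adjusted p = 0.35), and with the VMH marker score as a covariate 0.57 (adjusted p = 0.257).

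Ghsr stood at 6.38, 6.50 and 6.50 log2 units in cKO HFD mice, against 6.29, 6.13 and 6.10 in control HFD mice, with no overlap. The difference was 0.29 ± 0.15 (SE; 95% interval -0.04 to 0.61, adjusted p = 0.506, limma). On standard diet it was 0.16 (-0.17 to 0.48), and the arrays overlapped. The oligodendrocyte marker score moved with genotype too: the mean over 15 of 16 markers was 9.41 to 9.60 in cKO HFD mice against 9.80 to 10.03 in control HFD mice, and 9.17 to 10.13 in cKO mice against 9.59 to 10.95 in controls on standard diet. Its median difference over markers was -0.45 on HFD and -0.69 on standard diet, with no marker past the threshold. Across the 12 arrays the correlation with this score was -0.84 for both Ghsr and Mc3r and -0.54 for Avpr1a. The 9 tested endothelial and mural markers were all lower by value in cKO mice on HFD, with a median of -0.12 (0.03 over all genes). Their mean was 8.10 to 8.26 in cKO HFD mice against 8.25 to 8.37 in control HFD mice. On standard diet the direction differed: 7 of the 9 were higher in cKO mice, with a median of 0.03. The mean was then 8.14 to 8.34 in cKO mice against 8.03 to 8.34 in controls. The correlation with the endothelial and mural score was -0.79 for Ghsr and -0.61 for Avpr1a. The astrocyte score, over 12 markers, was 10.66 to 10.84 in cKO HFD mice against 10.56 to 10.73 in control HFD mice, and 10.7 to 10.94 in cKO mice against 10.36 to 10.9 in controls on standard diet. Averaged over diets, 7 of the 12 were higher by value in cKO mice, with a median difference of 0.07. Counted in both directions, 6 of the 12 had an unadjusted p under 0.05 between genotypes (11.2% of all genes). The 1 marker past the threshold (0.615% of all genes) was higher in cKO mice. It was Aqp4, the water channel of astrocytes, which is named for having passed (adjusted p = 0.0493, limma). The part of these scores in the genotype differences was not tested.

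The remaining receptors differed between genotypes by less than their intervals. On HFD the difference was 0.31 for Mc3r (95% interval -0.16 to 0.78; 0.14 without cKO HFD array 2), 0.12 for Esr1 (-0.11 to 0.36), 0.01 for Mc4r (-0.48 to 0.49) and -0.0001 for Npy1r (-0.39 to 0.39). It was -0.06 for Gpr83 (-0.23 to 0.11), -0.07 for Cnr1 (-0.35 to 0.21), -0.12 for Lepr (-0.42 to 0.18) and -0.25 for Glp1r (-1.20 to 0.69). The Gpr83 interval is the narrowest of these and the Glp1r interval the widest.

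On standard diet, Npy1r was 0.31 higher in cKO mice (95% interval -0.08 to 0.69), Lepr 0.28 (-0.01 to 0.58), Glp1r 0.26 (-0.69 to 1.20), Mc3r 0.23 (-0.24 to 0.70) and Gpr83 0.16 (-0.01 to 0.33). Cnr1 was -0.25 (-0.53 to 0.03), Esr1 -0.04 (-0.28 to 0.19) and Mc4r 0.05 (-0.43 to 0.54). Averaged over diets, 9 of the 10 differences were above 0, all but Cnr1; of all genes 60.4% were.

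Whether the genotypes differed in their response to HFD was tested with the interaction, the diet difference in cKO mice minus that in controls. No gene passed in this comparison (0.0%), and 944 had an unadjusted p under 0.05 (5.64%). Avpr1a had the smallest p of the receptors, with an interaction of 0.70 ± 0.16 (SE; 95% interval 0.35 to 1.06), an unadjusted p of 0.0012 and an adjusted p of 0.842 (limma, 12 arrays). It was 0.72 without cKO HFD array 2. For Lepr it was -0.40 (-0.82 to 0.02), for Npy1r -0.31 (-0.86 to 0.24), for Gpr83 -0.22 (-0.46 to 0.02) and for Glp1r -0.51 (-1.85 to 0.83). The other 5 intervals also held 0.

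By the means of the 4 groups, both HFD groups stood above both standard-diet groups for Gpr83, Npy1r, Glp1r and Cnr1. For Mc4r both stood below. How many of all genes have such an order was not counted, so the orders are descriptions. Gpr83, Npy1r and Glp1r had the order control HFD, cKO HFD, cKO standard diet, control standard diet from high to low. The HFD means of Npy1r differed by only 0.0001. For Gpr83 and Npy1r the step between cKO HFD and cKO standard diet was the only one without overlapping arrays; for Glp1r all neighbours overlapped. Cnr1 also had both HFD groups on top, at 9.90 in controls and 9.82 in cKO mice, with overlap at every step. For Avpr1a the step below the cKO HFD group, 0.47 log2 units, was the only one without overlap. In Lepr, Mc3r, Mc4r, Ghsr and Esr1 neighbouring groups overlapped throughout.

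Several receptors varied together from array to array. Over the 12 arrays Glp1r and Npy1r had a correlation of 0.92, and 0.87 once each group's mean was removed. Npy1r and Gpr83 had 0.85, but 0.33 after removal of group means, so most of their likeness lay between groups. Mc3r and Ghsr had 0.79, Ghsr and Esr1 0.78, and Ghsr and Cnr1 -0.51. Lepr had 0.22 with Glp1r and 0.16 with Npy1r, but 0.67 with each after removal of group means. With the other receptors its values after removal ran from -0.34 (Mc4r) to 0.29 (Ghsr). The points share dissections and groups, so these values are descriptions.

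**Figure D4:**
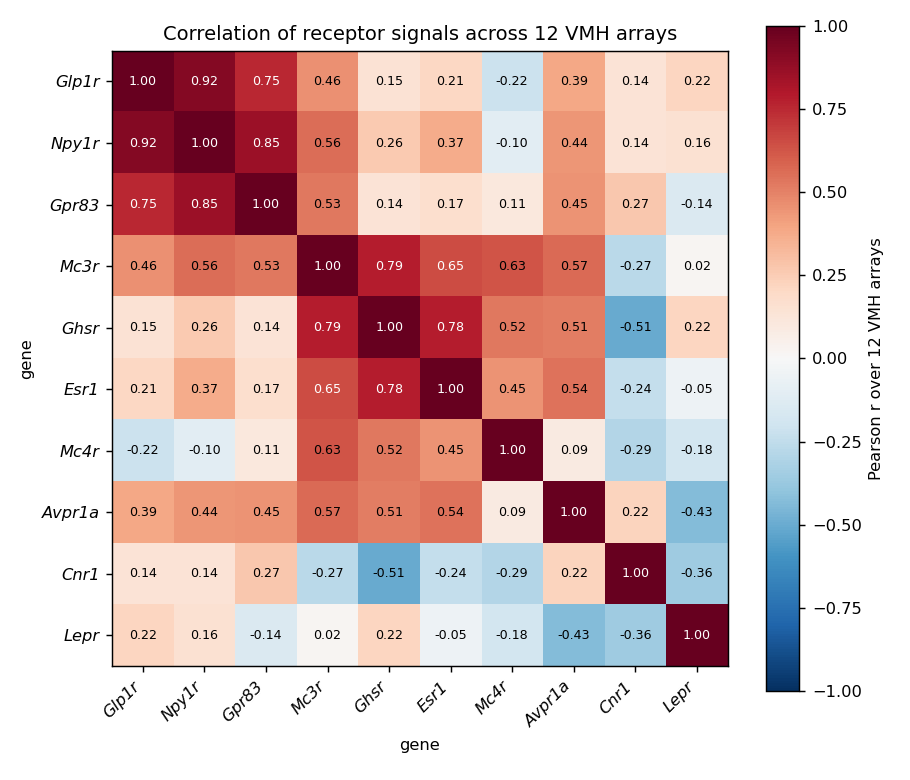
Pearson correlation of log2 signals between each pair of the 10 receptor genes over the 12 VMH arrays, red above 0 and blue below. Glp1r, Npy1r and Gpr83 form a block of high values, with 0.92 for Glp1r and Npy1r, and Mc3r, Ghsr and Esr1 another, with 0.79 and 0.78; Lepr and Cnr1 have low or negative values with most others.

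Among all tested genes, the row most like Glp1r over the 12 arrays was Tmem208 (r = 0.92), followed by Npy1r itself. Npy1r was most like Glp1r and then 1700086L19Rik (r = 0.91). Gpr83 was most like Arpp21 (0.92) and Map3k5 (0.89), Cnr1 most like Khdrbs2 (0.96) and Snap91 (0.90), Ghsr most like Xkr4 (0.95) and Nyap2 (0.93), and Mc3r most like Npnt (0.95) and Flrt2 (0.92). Values were lower for Lepr with Gm23582 (0.89) and Rps23rg1 (0.88), Mc4r with Gm7854 (0.86) and Nalcn (0.85), and Esr1 with Kcnh6 and Cdh12 (0.87 each). Avpr1a was most like the rows of Gm23076 and Gm24418 (0.91), which hold identical values. Each is the highest of 16738 correlations over 12 points.

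The other genes of these pathways were taken as 3 lists. Of 42 further receptors for energy-balance signals 30 were tested, of 22 genes for ligands and their making 14, and of 31 receptor partners and signalling genes 27. In none of the 7 comparisons did a gene of these lists pass the threshold, in either direction. Averaged over genotypes, the median difference between diets was -0.03, 0.12 and 0.01 for the 3 lists, against 0.02 over all genes.

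Stat3, the transcription factor that carries the leptin receptor's signal to the nucleus, came closest for diet. It had 9.21, 9.26 and 9.40 log2 units in cKO HFD mice and 9.18, 9.76 and 9.60 in control HFD mice, against 8.95, 9.15 and 9.01 in cKO mice and 8.81, 8.84 and 9.10 in controls on standard diet. All 6 HFD arrays lay above all 6 standard-diet arrays. The averaged difference was 0.43 (95% interval 0.21 to 0.64, adjusted p = 0.176, limma), with 0.60 in controls (adjusted p = 0.343). Ptpn2, a phosphatase of the JAK and STAT pathway, was 0.19 higher on HFD (adjusted p = 0.224).

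Among the further receptors, Hcrtr2, an orexin receptor, was 0.43 higher on HFD in the averaged comparison (95% interval 0.18 to 0.69, adjusted p = 0.218, limma), and Htr1b, a serotonin receptor, 0.27 (0.11 to 0.42, adjusted p = 0.223). Galr1, a galanin receptor, had a difference of -0.49 in controls (adjusted p = 0.494). Pomc, the precursor of the melanocortins, was 1.097 higher on HFD (0.15 to 2.05, adjusted p = 0.346); its signals were 7.32, 10.4 and 8.69 in cKO HFD mice, and 10.4 was measured on the array with Prl and Gh. Avp, the ligand of Avpr1a, was 0.69 higher (-0.12 to 1.51, adjusted p = 0.483).

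Between genotypes on HFD, Cckbr, a receptor of cholecystokinin that also stands in the list of VMH neuron markers, had 8.53, 8.46 and 8.51 log2 units in cKO mice against 7.67, 8.17 and 7.68 in controls. The arrays did not overlap, and the difference was 0.66 (95% interval 0.28 to 1.04, adjusted p = 0.22, limma). Mchr1, the receptor of melanin-concentrating hormone, was 0.42 higher (adjusted p = 0.373), Mgll, the enzyme that breaks down the endocannabinoid 2-AG, 0.36 higher (adjusted p = 0.317), its synthetic counterpart Daglb 0.16 (adjusted p = 0.365) and Creb1, a transcription factor of cAMP signalling, 0.17 (adjusted p = 0.4).

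On standard diet the smallest p-values between genotypes belonged to Cpe, a processing enzyme of neuropeptides, at 0.24 higher in cKO mice (adjusted p = 0.547), Pik3r1, a subunit of PI3 kinase, at 0.24 (adjusted p = 0.609) and Irs2, an adaptor of the insulin receptor, at 0.37 (adjusted p = 0.716). Mchr1 was 0.34 higher (adjusted p = 0.761). Averaged over diets, Mchr1 was 0.38 higher (95% interval 0.13 to 0.63, adjusted p = 0.24). On HFD its arrays overlapped, with 6.42, 6.91 and 6.51 in cKO mice against 6.11, 6.49 and 5.99 in controls.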

How the data were processed

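The authors deposited log2 signals of 24 Affymetrix arrays, between 2.12 and 19.9. PLIER 2.0 and Affymetrix Expression Console 1.1.1 are tools that the submitters' processing notes list without a role; the sources used here do not give the normalization or the genome build. Of 65956 rows that were not controls, 30604 had 1 symbol, 2146 several and 33206 none; 827 symbols were updated through a mouse gene table (GRCm38.p6; 22818 rows matched). Rows whose mean over the 12 VMH arrays reached the median of such means (5.39) were tested, the brightest per gene, which left 16738 genes. The deposited values entered limma 3.58.1 (R 4.3.3) as 4 group means, with equal weights and no block, for 7 comparisons; p-values are two-sided, with Benjamini-Hochberg adjustment over all genes and a threshold of 0.05. The procedure was tested on simulated data.

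The members and gene lists were chosen with earlier results of these data known. Named genes were the members, the genes of the 3 pathway lists past the threshold or among the 2 of smallest p per comparison (several of these are left out of the text), the 2 rows most correlated with each member, and Arntl and Gfap. Alternatives were quantile normalization, a pseudocount of 16, no filter, a gene's mean row, array weights, a robust trended prior, a replicate block, fits of the compared groups alone, marker scores as covariates and leaving out each array. The number of arrays limits the precision.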

Additional observations from a re-analysis of the deposited data

How the results depend on the processing

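No receptor passed the threshold in any of the 7 comparisons, and 5 single values did so in an alternative. With array weights the count was 1 for cKO minus control on HFD (Avpr1a), 1 for HFD minus standard diet in cKO mice (Avpr1a, 0.69, adjusted p = 0.0456) and 1 for the averaged diet comparison (Gpr83). Leaving out 1 array at a time gave 0 to 1 in the averaged diet comparison (1 without control standard-diet array 1) and 0 to 1 for cKO minus control on HFD (1 without control standard-diet array 3), and 0 in the other 5 comparisons. Over all alternatives the adjusted p ranged from 0.0244 to 0.916 for Gpr83 between diets (averaged), from 0.036 to 0.424 for Avpr1a between genotypes on HFD and from 0.0456 to 0.998 for Avpr1a between diets in cKO mice. Of 1510 values of members under alternatives, 1432 kept their direction and side of the threshold and 73 changed sign without passing (in 26 of 70 results). For many of these values the direction could not change. Some alternatives, such as the replicate block, alter only the spread or the adjustment, and others leave out an array outside the contrast. The count is therefore not a measure of robustness. Fitting only the groups compared gives no value for averaged comparisons or the interaction, and no receptor had another row to try.

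The titles number arrays 1 to 3 in each group. Of 18 pairs of like-numbered arrays, 3 had deviations correlated above 0.1 (range -0.34 to 0.28). Of 12 arrays, 3 correlated best with their own number. This check showed no clear pairing by number, but with 3 arrays a group it cannot exclude one. With the replicate block 0 receptors passed in every comparison; over all genes the block gave 30, 42 and 93 calls for the genotype (standard diet, HFD, averaged), 1 and 0 for diet in cKO mice and controls, and 0 averaged, where the fit without it gave 2. With array weights those counts were 54, 117 and 203 for genotype and 22, 0 and 17 for diet, against 44, 48 and 103 and 1, 0 and 2; over all alternatives the genotype counts ran from 10 to 54, from 30 to 117 and from 62 to 203, and the diet counts from 0 to 22 in cKO mice and from 0 to 17 averaged.

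With 3 arrays a group, intervals of Glp1r, Mc3r and Mc4r are wide, and signals say nothing about protein or cell type.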

Other observations

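In BAT, which entered none of the comparisons above, 3 of the receptors stood well above the middle of the table. Esr1 averaged 6.61 log2 units there (percentile 80.9), Npy1r 5.89 (percentile 75.8) and Avpr1a 5.74 (percentile 74.5). The Esr1 range over the 12 BAT arrays was 5.02 to 8.06, wider than the 5.79 to 6.18 of the VMH arrays. The BAT range spans groups. Its means were 6.27 in cKO HFD mice and 5.28 in control HFD mice, against 7.535 in cKO mice and 7.35 in controls on standard diet. These differences were not tested. Lepr averaged 4.48 (percentile 60.3), and Gpr83 and Mc3r stood at percentiles 12.2 and 21.1.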
